A study of Mus musculus with 2 samples.

Results

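The 4 mouse tropomyosin genes Tpm1, Tpm2, Tpm3 and Tpm4 were examined for open chromatin at their annotated transcription starts, along their gene bodies and in the 50 kb on either side. They were taken from the GENCODE M21 annotation by name and are 4 of 22028 protein-coding genes. Together they hold 45 annotated transcripts with 44 distinct starts. Starts of a gene that lie no more than 500 bases apart were joined into 1 promoter, which gave 13 promoters for the tropomyosins out of 88279 over all genes. Promoters are numbered below from the 5′ end of each gene, so that Tpm1-P1 is the first promoter of Tpm1.

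The data are DNase-seq, a sequencing map of the places where nuclear DNA is open to digestion by DNase I. Urinary bladder tissue came from male B6CASTF1/J mice, which are F1 hybrids of a C57BL/6J and a CAST/EiJ parent, aged 36 days. There was 1 group with 2 libraries, replicate 1 and replicate 2, and the labels name a different animal for each library but give both the same donor record. No contrast between groups exists, so heights and counts are given per library and no p-value is computed. The tissue is a mixture of urothelium, detrusor smooth muscle, stroma and vessels, and an open site in fewer cells and a weaker site in more cells cannot be told apart.

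Tropomyosins are coiled-coil proteins that lie end to end along actin filaments and set which myosins and other proteins can reach the filament. In striated muscle they carry the calcium switch together with troponin, while in smooth muscle and non-muscle cells contraction is switched mainly through myosin light chain phosphorylation and caldesmon. Tpm1 and Tpm3 are textbook cases of alternative promoter use. A promoter at the 5′ end starts long proteins, among them those typical of muscle. An internal promoter starts short proteins found in most cell types. Tpm2 encodes the beta-tropomyosin of muscle and a related non-muscle form by alternative splicing, and Tpm4 encodes a short non-muscle tropomyosin.

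The annotation followed this plan. Complete coding transcripts from Tpm1-P1 mostly encode 284 residues (7 transcripts), and those from Tpm1-P2, 5156 bases further into the gene, encode 248 residues in 3 transcripts and 245 in 2. Tpm3-P1 starts proteins of 284 and 285 residues, and Tpm3-P2, 6889 bases downstream, starts proteins of 248 and 247 residues. The 3 complete coding transcripts of Tpm2 all start at Tpm2-P1 and encode 284 residues. The single coding transcript of Tpm4 encodes 248 residues.

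A promoter is called open here where a peak of the shorter of the deposited peak lists reached within 500 bases of one of its starts in both libraries. By this rule 6 of the 13 tropomyosin promoters were open, beside 27.0% of 52638 promoters of protein-coding genes and 19.0% of promoters of all genes. Open promoters were found in each gene: 2 of 3 in Tpm1, 2 of 2 in Tpm2, 1 of 7 in Tpm3 and the only one in Tpm4. Of the 44 starts, 33 had a peak within 500 bases in both libraries, of which 20 belong to Tpm1. Neighbouring starts share a peak, and those 20 rest on the peaks at Tpm1-P1 and Tpm1-P2 alone. The same share over all annotated starts was not computed. At least 1 open promoter is also present in 56.0% of protein-coding genes, so that having one is common. In single libraries the rule called 6 of the 13 promoters in replicate 1 and 7 in replicate 2, beside 28.2% and 29.2% of promoters of protein-coding genes. With the longer list 7 were open in both libraries, beside 31.0%, and the 4 genes again all had one, beside 61.0% of protein-coding genes.

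The upstream parts of the Tpm1 and Tpm3 promoters are shown so that the first and the internal promoter of each gene can be compared. All sequences are read from GRCm38 (RefSeq, patch 6; coordinates of mm10) and written 5′ to 3′ on the strand of the gene. In the 3 sequences that lie in a peak, capitals mark bases inside a footprint in both libraries, a footprint being a short protected stretch within accessible chromatin. Tpm1-P1 upstream is chr9:67049407-67049580 and Tpm1-P2 upstream is chr9:67043963-67044140, both on the minus strand. Tpm3-P2 upstream is chr3:90079381-90079539 on the plus strand. Tpm3-P1 upstream, chr3:90072489-90072648, has no peak, and there the capitals mark its only CpG.
Tpm1-P1 upstream: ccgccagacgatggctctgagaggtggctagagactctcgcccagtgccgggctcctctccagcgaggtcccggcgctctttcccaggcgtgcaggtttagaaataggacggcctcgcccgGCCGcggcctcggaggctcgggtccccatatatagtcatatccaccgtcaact
Tpm1-P2 upstream: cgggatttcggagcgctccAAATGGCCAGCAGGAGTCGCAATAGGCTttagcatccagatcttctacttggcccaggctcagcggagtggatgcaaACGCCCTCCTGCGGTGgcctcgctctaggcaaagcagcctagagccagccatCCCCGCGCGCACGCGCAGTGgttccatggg
Tpm3-P1 upstream: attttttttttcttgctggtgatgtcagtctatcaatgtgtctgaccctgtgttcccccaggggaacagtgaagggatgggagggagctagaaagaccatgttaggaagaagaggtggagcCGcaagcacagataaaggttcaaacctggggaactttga
Tpm3-P2 upstream: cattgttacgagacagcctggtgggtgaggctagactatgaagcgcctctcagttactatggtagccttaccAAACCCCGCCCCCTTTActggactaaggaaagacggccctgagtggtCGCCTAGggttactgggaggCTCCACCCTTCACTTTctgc
The stretch before Tpm1-P1 holds 16 CpG in 174 bases and the one before Tpm1-P2 holds 13 in 178. The stretch before Tpm3-P2 holds 5 CpG in 159 bases, against 1 in 160 bases before Tpm3-P1.

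Tpm1, the alpha-tropomyosin gene (ENSMUSG00000032366.15), spans chr9:67022590-67049406 on the minus strand. Both of its coding promoters were open, and the internal one had by far the higher peak. At Tpm1-P2, which starts the short proteins, the peak height was 5.65 in replicate 1 and 5.53 in replicate 2 (mean 5.59 ± 0.084, SD, n = 2). At Tpm1-P1, which starts the long proteins, it was 1.89 and 2.10 (2.0 ± 0.145). Heights are the signal values deposited with each peak, on a scale that no header states.

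Within each library the Tpm1-P2 peak was 2.98 and 2.63 times as high as the Tpm1-P1 peak, a ratio of 2.81 ± 0.246. This difference is larger than the spread between the libraries at either promoter. Because heights may scale differently between libraries, each was also ranked among all peaks at annotated starts of its own library. The Tpm1-P2 peak stood at percentile 96.57 and 95.45, and the Tpm1-P1 peak at 47.59 and 56.9. The lowest per-site FDR near Tpm1-P2 was 8.14e-42 in replicate 1 and 1.21e-43 in replicate 2, and near Tpm1-P1 it was 2.42e-12 and 5.86e-14.

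The peaks at both Tpm1 promoters cover starts rather than only flanking them. The Tpm1-P1 peak (chr9:67049041-67049580 in replicate 1) contained 13 of the 13 starts there, and 12 in replicate 2. The narrower Tpm1-P2 peak (chr9:67043801-67044140 in replicate 1) contained 4 of its 7 starts, and 3 in replicate 2. The remaining promoter, Tpm1-P3, belongs to a noncoding processed transcript inside the gene and had no peak in either list of either library. No stretch with an FDR of at most 0.05 was listed there.

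Footprints were deposited separately for each library. The Tpm1-P2 peak held 6 in replicate 1 and 5 in replicate 2. Of these 6, 4 were overlapped by a replicate 2 footprint lying wholly inside a peak, and all 5 of replicate 2 by one of replicate 1. The pair over the capitals nearest to the first start of Tpm1-P2 spanned 67043973-67043992 in replicate 1 and 67043973-67043994 in replicate 2. Further upstream, footprints at 67044028-67044048 and 67044029-67044044 covered the middle block of capitals. The block farthest upstream is a footprint at 67044092-67044121 in replicate 1. The replicate 2 footprint there is not counted, because it runs past the edge of its peak. The Tpm1-P1 peak held 5 and 6 footprints, at most 12 bases wide, against up to 30 bases at Tpm1-P2.

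**Figure D1:**
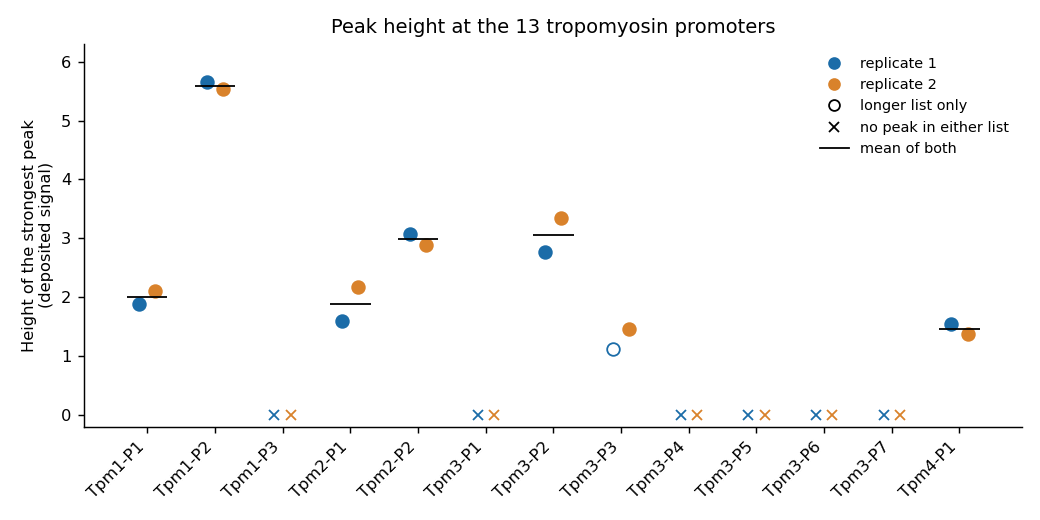
Height of the strongest peak (deposited signal, linear axis) within 500 bases of the starts of each of the 13 tropomyosin promoters, with replicate 1 in blue, replicate 2 in orange and the mean of both as a line. Open circles are peaks found only in the longer list and crosses mark promoters without a peak. Tpm1-P2 stands highest, at 5.65 and 5.53, and 6 promoters have no peak in either list.

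Tpm3 (ENSMUSG00000027940.18, chr3:90072649-90100902, plus strand) encodes the slow-muscle alpha-tropomyosin and short cytoskeletal forms. Its first promoter had no listed peak and its internal coding promoter was open. No peak of either list lay near Tpm3-P1 in either library, and no stretch with an FDR of at most 0.05 was listed within 500 bases of it. Among promoters of protein-coding genes without a peak in either library, such a stretch was listed for 5.52% in replicate 1 and 6.69% in replicate 2, so an empty window is the usual case.

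At Tpm3-P2, which starts the short proteins, the height was 2.77 in replicate 1 and 3.34 in replicate 2 (3.05 ± 0.405). These peaks stood at percentile 65.5 and 76.7 of start peaks. The replicate 2 peak was the higher one, by a log2 ratio of replicate 1 over replicate 2 of -0.27, and over all 33303 shared peaks this ratio had a median of 0.07 and an SD of 0.32. Each of these peaks contained 4 of the 5 distinct starts of Tpm3-P2.

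Tpm3-P2 had 7 footprints in replicate 1 and 6 in replicate 2, of which 6 and 5 overlapped one of the other library. The first block of capitals in its sequence is a footprint at 90079453-90079470 in replicate 1 and 90079453-90079469 in replicate 2. It covers a match to GGGCGG, the core bound by SP and KLF factors, on the minus strand at 90079458-90079463. A footprint inside the transcribed part lay at 90079591-90079603 in both libraries.

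The other 5 promoters of Tpm3 differ from these. Tpm3-P3, at the start of a transcript with an incomplete coding sequence, had a peak only in replicate 2 (height 1.46, percentile 42.16). In the longer list it had a peak in both libraries, at 1.11 and 1.46. Tpm3-P4 to Tpm3-P7 start retained-intron or processed transcripts and had no peak in either list.

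Tpm2 (ENSMUSG00000028464.16, chr4:43514711-43523765, minus strand) had a peak at each of its promoters. At Tpm2-P1, the start of all its complete coding transcripts, the height was 1.60 in replicate 1 and 2.18 in replicate 2 (1.89 ± 0.41). The percentiles were 39.87 and 58.37, the widest gap between libraries among the 6 open promoters. The replicate 1 peak was 80 bases wide with no footprint inside, and the replicate 2 peak was 231 bases wide with 6 footprints. The log2 ratio of -0.45 lies within the central 95% of all shared peaks, -0.57 to 0.73.

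The higher Tpm2 peak lay inside the gene, 3625 bases from the first start, at chr4:43520041-43520240 in replicate 2. Its height was 3.07 in replicate 1 and 2.89 in replicate 2 (2.98 ± 0.127), and 1.92 and 1.33 times that of Tpm2-P1. It is counted as Tpm2-P2 because the start of a noncoding processed transcript lies 392 bases from it in replicate 1 and 372 bases in replicate 2. No start lies inside the peak. With a window of 250 bases, or with protein-coding transcripts only, Tpm2 had 1 open promoter, and its percentile of 70.5 ± 0.104 became 44.1 and 45.8.

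The intronic Tpm2 peak is shown because its widest footprint was found in both libraries, at 43520122-43520159 and 43520120-43520154. Capitals again mark bases inside a footprint in both libraries. The long block contains CAGCTG, a palindromic E-box of the kind bound by muscle basic helix-loop-helix factors, at 43520136-43520141. This hexamer is present in 15.8% of all shared start peaks and 16.2% of shared distal peaks, and a match does not show that a factor was bound.
Tpm2 intron, chr4:43520041-43520240, minus strand: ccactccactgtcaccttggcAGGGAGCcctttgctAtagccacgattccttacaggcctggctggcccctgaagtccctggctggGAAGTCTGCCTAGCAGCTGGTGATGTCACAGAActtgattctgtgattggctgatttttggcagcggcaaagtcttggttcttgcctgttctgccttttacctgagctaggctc
The printed 200 bases hold 2 CpG.

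Tpm4 (ENSMUSG00000031799.9, chr8:72134975-72153142, plus strand) had 1 promoter, and it was open in both libraries with the lowest heights of the family's open promoters. The strongest peak at its promoter measured 1.54 in replicate 1 and 1.37 in replicate 2 (1.45 ± 0.124), at percentile 38.2 and 39.65. It was narrow, 60 bases in replicate 1 and 80 in replicate 2. The replicate 1 peak reached the coding start at 72135259, and the replicate 2 peak ended 19 bases before it. A lower peak downstream, 1.11 and 1.12, lay at 72135701-72136111. Another, at 72136181-72136960 in an intron, measured 1.12 and 1.45, and was higher than the promoter peak in replicate 2.

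The sequence between the edge of the Tpm4 promoter peak in replicate 2 and the coding start is dense in CpG, with 13 in 98 bases, and its longer footprint block contains GGGCGG at 72135224-72135229. It is upstream of the coding start only. The first start of Tpm4-P1, that of a noncoding processed transcript, lies before it at 72134975.
Tpm4-P1 upstream, chr8:72135161-72135258, plus strand: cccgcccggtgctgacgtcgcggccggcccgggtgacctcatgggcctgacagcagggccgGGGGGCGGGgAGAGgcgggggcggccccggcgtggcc
The intronic peak is shown around its matches to the E-box and the CArG box, which serum response factor binds at many smooth muscle genes. Here capitals mark these matches, at 72136750-72136755 and 72136832-72136841, which are 76 bases apart.
Tpm4 intron, chr8:72136740-72136851, plus strand: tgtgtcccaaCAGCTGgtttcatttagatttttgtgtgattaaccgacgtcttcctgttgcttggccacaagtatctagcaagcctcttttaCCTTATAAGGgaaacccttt
Neither match lay in a footprint in either library. This was the only CArG box inside a peak of both libraries among 37 in the 4 genes and their flanks. Its peak was wide, 685 bases in replicate 1 and 780 in replicate 2, against a median of 200 over all peaks. A CArG box was present in 0.77% of all shared distal peaks. With the stronger 50% of peaks no shared peak of the 4 genes held one. A second CArG box, upstream of Tpm2, lay in a peak of both libraries in the longer list. None of the 8 matches to the site of MEF2, a muscle transcription factor, lay in a peak of both libraries in either list. A MEF2 site was present in 0.199% of all shared distal peaks. The share of the searched bases that lie in peaks was not computed. These counts therefore do not show whether either motif is rarer in peaks than its position alone would give.

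**Figure D2:**
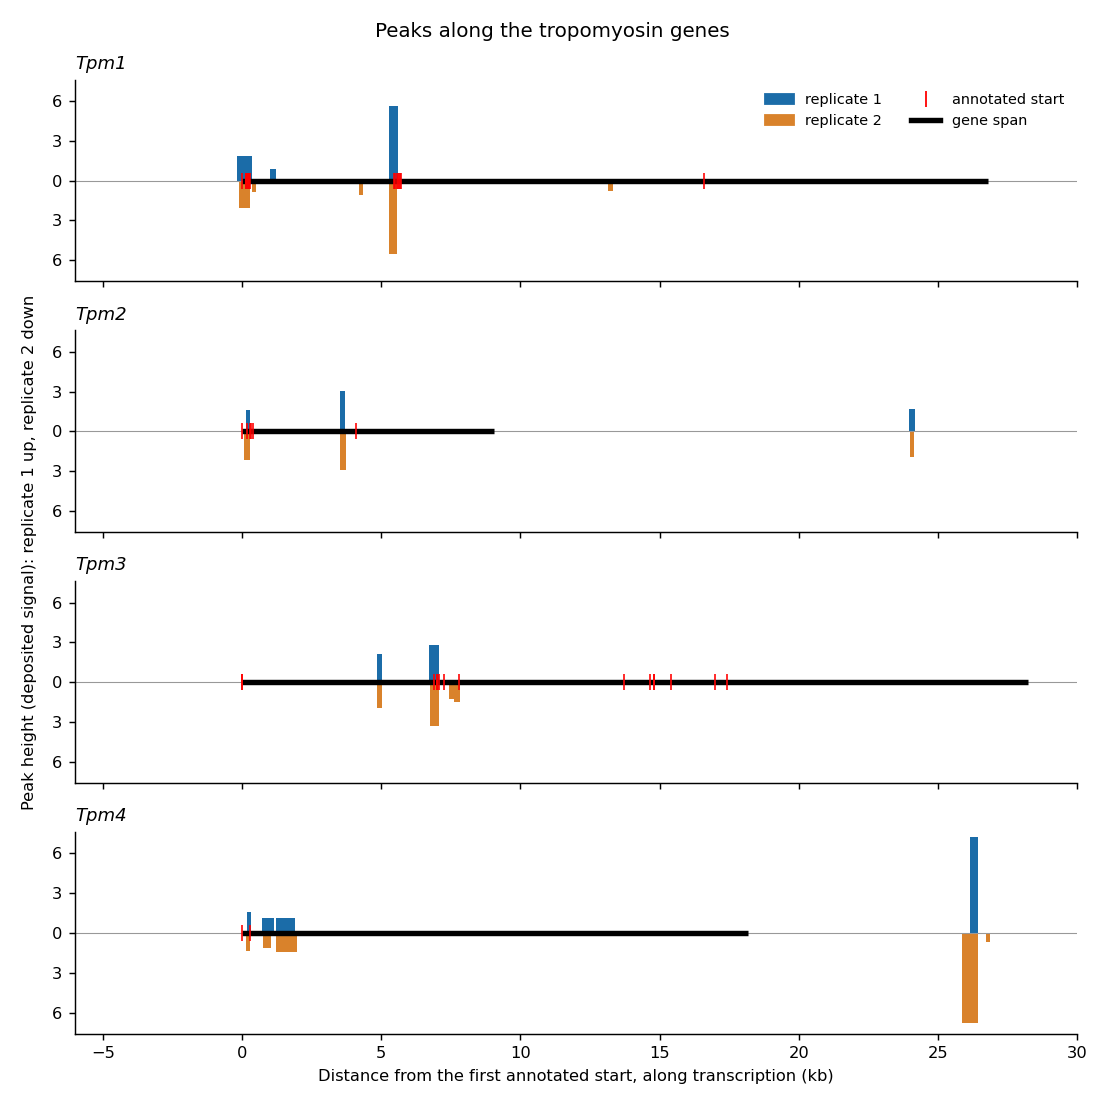
Peaks of the shorter list along the 4 genes, drawn by distance from the first annotated start in the direction of transcription (kb), with the deposited height of replicate 1 upwards and of replicate 2 downwards. Red ticks are annotated starts and black bars are gene spans. Tpm1 and Tpm3 carry their strongest peak at the internal starts, and the tallest bars in the Tpm4 panel, 7.23 and 6.78, are at the start of the neighbour Rab8a.

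Ordered by mean height, the open promoters ran from Tpm1-P2 (5.59) through Tpm3-P2 (3.05), Tpm2-P2 (2.98), Tpm1-P1 (2.0) and Tpm2-P1 (1.89) to Tpm4-P1 (1.45). Tpm1-P2 was 2.04 and 1.66 times as high as Tpm3-P2, and both ratios exceed 1. Tpm3-P2 and Tpm2-P2 could not be ordered, since Tpm3-P2 was the lower in replicate 1 and the higher in replicate 2. The same was true of Tpm1-P1 and Tpm2-P1, whose ratio was 1.18 and 0.963. Tpm4-P1 was lower than Tpm2-P1 in both libraries, only slightly in replicate 1 (1.54 against 1.60) and more in replicate 2 (1.37 against 2.18).

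In the 3 genes with several promoters, the strongest peak was never at the first one. Over all 8827 protein-coding genes with several promoters and at least 1 open, this was so in 19.0%. Of the first promoters of these 3 genes 2 were open, beside 58.6% of first promoters of such genes. Of their later promoters 3 of 9 were open, beside 9.76%. Tpm3 belongs to the 8.44% of multi-promoter genes with a later promoter open but not the first. Tpm1 and Tpm2 belong to the 12.4% with at least 2 open promoters. With 3 genes these counts are descriptions, and the Tpm2 case rests on the processed transcript described above.

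The short-form promoters of Tpm1 and Tpm3 thus had higher peaks than the long-form promoters of the same genes in both libraries. The long-form promoters differed among themselves: those of Tpm1 and Tpm2 were open at similar heights and that of Tpm3 had no listed peak. Peak height is not transcript level, and these files hold no RNA measurement.

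Base composition was compared next. CpG observed over expected, computed over 501 bases around each promoter, had a median of 0.795 at open promoters of protein-coding genes (quartiles 0.645 and 0.914). At closed ones, meaning those without a listed peak in either library, it was 0.234 (0.144 and 0.344). The ratio was 0.846 at Tpm1-P1, 0.829 at Tpm1-P2, 0.781 at Tpm3-P2 and 0.695 at Tpm4-P1, all inside the quartiles of open promoters. Tpm3-P1 had 0.153, inside those of closed promoters. Tpm2-P1 lay between, at 0.56, and Tpm2-P2 had 0.327, inside the quartiles of closed promoters. For Tpm2-P2 that window surrounds the annotated start and does not reach the intronic peak. Tpm1-P1 and Tpm1-P2 had nearly equal ratios although their heights differed.

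**Figure D3:**
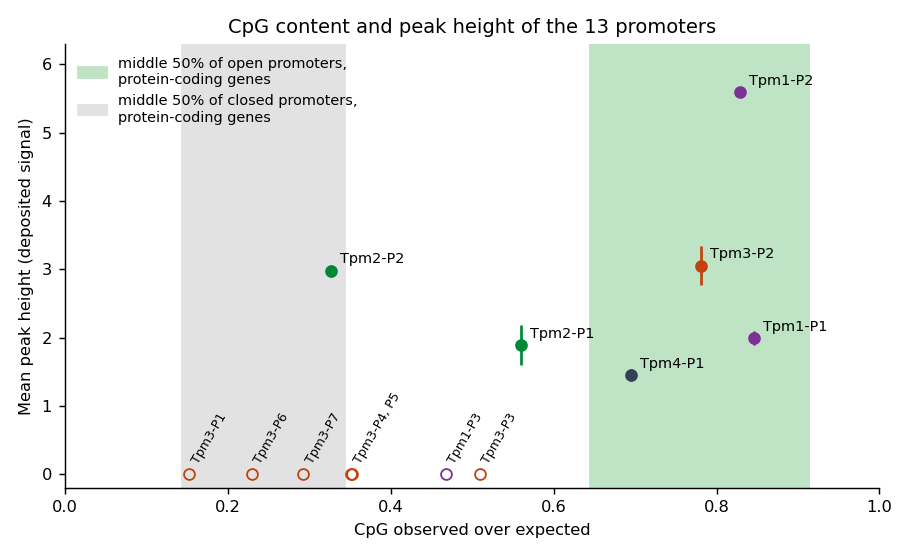
Mean peak height of both libraries (deposited signal) against CpG observed over expected for the 13 tropomyosin promoters, coloured by gene, with vertical lines from the lower to the higher library. Hollow circles at 0 are promoters not open in both libraries, and shaded bands hold the middle 50% of open (green) and closed (grey) promoters of protein-coding genes. Tpm2-P2 is the only filled point in the grey band, at 0.327.

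In the gene bodies and 50 kb flanks the peaks of both libraries formed 38 sites, of which 27 had a peak in both. Over the whole lists 86.1% of replicate 1 peaks and 69.6% of replicate 2 peaks were shared. Of the 27 sites, 7 lay at starts of the tropomyosins themselves, 12 at starts of neighbouring genes, 2 inside a tropomyosin gene away from its starts and 6 in the flanks. Of all 33303 shared peaks, counted from replicate 1, 17206 lay within 500 bases of an annotated start of any gene and 16097 did not. The loci were chosen around genes, so these splits cannot be compared directly. The log2 ratio of heights between libraries over the 27 sites had a median of 0.03 and an SD of 0.25, beside 0.07 and 0.32 over all shared peaks. Of the 11 sites found in 1 library, 9 were from replicate 2, and 6 of the 11 had a peak in the longer list of the other library. The highest of the 11 was a site 7028 bases upstream of Tpm2, with 1.87 in replicate 1 and 1.38 in the longer list of replicate 2. Replicate 2 had the longer lists throughout, with 47661 peaks against 38674.

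**Figure D4:**
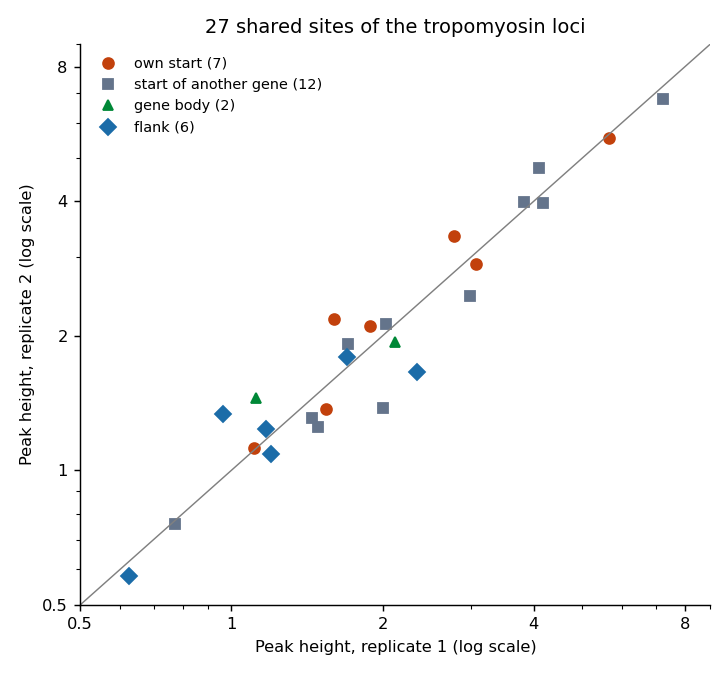
Peak height in replicate 1 against replicate 2 (deposited signal, both axes logarithmic) for the 27 sites with a peak in both libraries, by place; the line marks equal heights. The points follow the line, with log2 ratios from -0.47 to 0.54, and the highest point is the Rab8a start at 7.23 and 6.78.

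The 2 shared sites inside a gene and away from its starts were the Tpm4 intron described above and a site in the long first intron of Tpm3. The Tpm3 site lay at chr3:90077501-90077660, 4850 bases after Tpm3-P1 and 1880 bases before Tpm3-P2. Its height was 2.12 in replicate 1 and 1.94 in replicate 2. A single wide footprint was present in both libraries, at 90077591-90077622 in replicate 1 and 90077594-90077622 in replicate 2. It covers a match to the core motif of CTCF, a factor that anchors chromatin loops, at 90077605-90077616 on the minus strand. That motif is present in 23.0% of shared distal peaks.

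In the flank of Tpm1, 21170 bases past its 3′ end, a site at chr9:67001221-67001420 measured 2.34 and 1.66. Its footprint of 28 bases, 67001299-67001326, had the same edges in both libraries. The footprints of these sites are shown side by side because they share a run of letters, which was noticed after the sequences were read. Capitals mark bases inside a footprint in both libraries.
Tpm3 intron, chr3:90077501-90077660, plus strand: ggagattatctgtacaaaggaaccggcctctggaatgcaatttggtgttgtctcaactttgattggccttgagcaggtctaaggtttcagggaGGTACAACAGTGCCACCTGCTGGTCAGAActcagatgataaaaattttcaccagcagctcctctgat
Tpm1 flank, chr9:67001221-67001420, minus strand: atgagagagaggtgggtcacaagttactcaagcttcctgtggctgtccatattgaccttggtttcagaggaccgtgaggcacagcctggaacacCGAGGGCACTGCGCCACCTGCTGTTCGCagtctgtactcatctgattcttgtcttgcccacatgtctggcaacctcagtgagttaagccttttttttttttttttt
Both footprints contain the 11 bases GCCACCTGCTG. In the Tpm3 footprint they lie inside the CTCF core match given above. This run, on either strand, was present in 2.09% of 16097 shared distal peaks and 0.215% of 17206 shared start peaks. In the Tpm1 flank footprint the run is followed by T where the Tpm3 match has G. Through that base alone it does not match the CTCF core motif as searched.

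The other 5 shared flank sites had lower mean heights than the Tpm1 site. A site 32534 bases upstream of Tpm1 measured 1.17 and 1.24. In the flank of Tpm2, downstream, sites at 43478261-43478480 and 43479581-43479740 measured 1.70 and 1.79, and 0.964 and 1.34. The second of these held a CTCF core match at 43479672-43479683, which lay inside a footprint in replicate 2 (43479658-43479688). In replicate 1 the match spanned the gap between footprints at 43479663-43479672 and 43479675-43479688. The Tpm3 flank site at 90136839-90136925 measured 0.624 and 0.58, and the Tpm4 flank site at 72177481-72177700 measured 1.20 and 1.09.

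Of the 7 shared sites at tropomyosin starts, 6 held GGGCGG in both libraries, beside 65.2% of all shared start peaks, and the site without it was the Tpm2 intron. CCGGAA, the core bound by ETS factors, was present in 2 of the 7, at Tpm1-P2 and Tpm3-P2 (background 25.8%), and CCAAT, the NFY core, in 2 (30.2%). CATTCC, the core bound by TEAD factors, was present at Tpm1-P1 (9.49%). CAGCTG was present in the Tpm2 intron (15.8%) and the CTCF core in the lower Tpm4 peak (2.8%). The CArG box, the MEF2 site, TGANTCA of AP-1, TGTGGT of RUNX, TGTTTAC of FOX and TATAAA were in none of the 7, and their backgrounds were 0.924%, 0.25%, 4.33%, 9.28%, 2.11% and 2.9%. All motifs were searched on both strands as exact matches, so sequences 1 letter off were not counted. The stretch printed before Tpm1-P1, for example, holds CCATATATAG, which misses the CArG box by 1 letter.

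Footprints in the shared sites at tropomyosin starts overlapped between libraries in 18 of 24 cases counted from replicate 1. Over all shared peaks 62.0% of replicate 1 footprints were overlapped, counting every replicate 2 footprint, also those not wholly inside a peak. The 18 of 24 counts only replicate 2 footprints wholly inside a peak, so these shares cannot be compared directly. Per 100 bases of peak, the 6 open promoters held from 0.0 (Tpm2-P1) to 3.33 footprints (Tpm4-P1) in replicate 1, beside 1.16 over all start peaks. Tpm2-P1, Tpm1-P1 (0.926) and Tpm2-P2 (1.11) were below that value there. In replicate 2 they held from 1.5 (Tpm1-P1) to 2.6 (Tpm2-P1), beside 1.19.

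As a gene-level measure, the strongest start peak of each gene was ranked among all start peaks of its library, with 0 for a gene without one. Tpm1 stood at 96.0 ± 0.798 (SD, n = 2), Tpm3 at 71.1 ± 7.92, Tpm2 at 70.5 ± 0.104 and Tpm4 at 38.9 ± 1.03. Tpm2 and Tpm3 did not differ beyond their spread. The median of the 4 genes, 70.8, was close to the median of 70.2 over the 12330 protein-coding genes with an open promoter, and over all 22028 protein-coding genes the median was 31.4. Tpm4 fell to 7.73 when only the stronger 50% of peaks was ranked.

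Genes whose products work with tropomyosin were described as lists, beside the background of 56.0% of protein-coding genes with an open promoter. Of 27 genes for proteins of the thin filament itself, 8 had a promoter open in both libraries: 2 of 6 actins, 3 of 7 tropomodulins and leiomodins, 2 of 6 caldesmon and calponin genes and 1 of 8 troponins. With the longer list the count was 12 of 27, beside 61.0%. Of the myosins that act on the filament, their light chains and the light chain kinase gene Mylk, 7 of 8 were open. Of the splicing regulators of tropomyosin exons 10 of 10 were open, which gives 25 of 45 over all lists.

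Among the actins, Actb (percentile 98.4) and Actg1 (55.8), the cytoplasmic forms, had open promoters. The muscle actins Acta1, Acta2, Actc1 and Actg2 had no peak at any start in either library, and of these Acta2, the actin of vascular smooth muscle, had one in the longer list of both. Tmod3 (86.1), a tropomodulin that caps the slow-growing filament end in many cell types, ranked highest of its list, followed by Tmod1 (14.6). Tmod4 and the leiomodins Lmod1, Lmod2 and Lmod3, which nucleate muscle actin filaments, had no start peak. Tagln2 (73.2) and Cnn3 (62.2), the broadly expressed transgelin and calponin, were open, while the smooth muscle members Tagln and Cnn1 were without a start peak. Cald1, which encodes caldesmon, had a start peak only in replicate 2, and Cnn2 only in replicate 1.

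Of the troponins, the calcium switch of striated muscle, only Tnnt1 (31.8) was open, and Tnnc1, Tnnc2, Tnni1, Tnni2, Tnni3, Tnnt2 and Tnnt3 had no start peak in the shorter list. Myh9 (97.1), a non-muscle myosin heavy chain, and its light chain Myl12a (96.7) ranked highest among the myosins, and Myl9, the light chain of smooth muscle myosin, was the 1 member without a start peak. Ptbp1 (95.6), which represses muscle exons of tropomyosin transcripts, and Mbnl2 (80.6) led the splicing regulators.

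**Figure D5:**
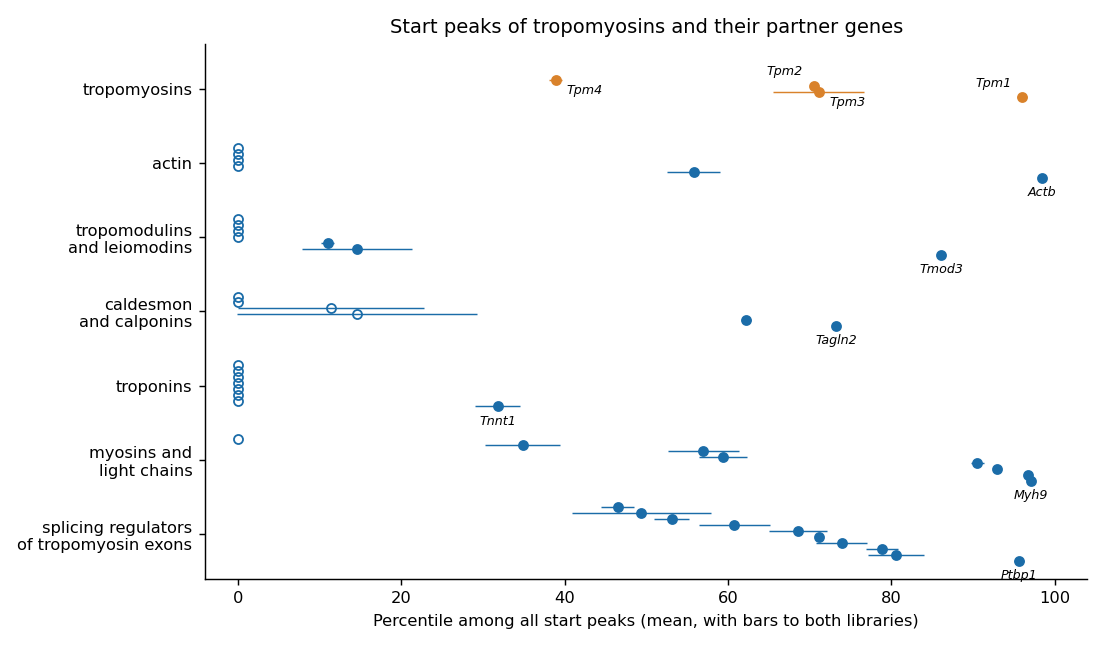
Percentile of the strongest start peak among all start peaks for the 4 tropomyosins (orange) and 45 partner genes (blue) by list; points are the mean of both libraries, bars reach each library's value, and hollow points have no promoter open in both libraries. Tpm1 at 96.0 lies near Actb at 98.4 and Myh9 at 97.1, and the hollow points include 4 actins and 7 troponins.

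The labelled tissue was checked against marker genes. An open promoter was present for 6 of 8 urothelial markers and 3 of 8 smooth muscle markers, and for 2 of 5 fibroblast and 2 of 5 endothelial markers. Over all protein-coding genes this share was 56.0%, and among these lists only the urothelial markers exceeded it. Immune markers had 0 of 5, cardiomyocyte markers 0 of 5, and markers of neurons and hepatocytes 0 of 4. Of 6 skeletal muscle markers 1 was open, Mylpf. The open smooth muscle markers were Myh11, Smtn and Mylk, and Acta2, Cnn1, Tagln, Actg2 and Des had no start peak in the shorter list. With the longer list Acta2 and Des were open as well, which gave 5 of 8 smooth muscle markers, and 8 of 8 urothelial markers were open. The share over all protein-coding genes was then 61.0%. The part of cell composition in the heights at the tropomyosin promoters was not tested.

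The genes most like each tropomyosin were sought over 4 values: number of promoters, share open, mean percentile and shared peaks in the gene body. Among 22028 protein-coding genes the nearest to Tpm1 were Mttp and Arl4a, each with 2 of 3 promoters open and percentiles of 96.0 and 96.2. The nearest to Tpm2 were Etfdh (70.6) and Pag1 (69.9), both with 2 of 2 promoters open. Ipo9 (72.6) and Tecpr1 (73.5) were nearest to Tpm3, with 1 of 7 open, and Edaradd (38.7) and Tspan12 (38.0) to Tpm4, with 1 promoter each and 4 shared peaks in the gene body.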

How the data were processed

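DNase-seq of 2 bladder libraries was used as deposited. The authors aligned reads to mm10 and made the lists library by library, per the labels and the deposited descriptions. The software for alignment and calling is not given in the sources used here. Peak heights are signal values deposited by the authors, without a stated scale. They fall on steps of 0.0113 in replicate 1 and 0.00893 in replicate 2 (60 lowest heights each, within 0.05 of a step). The read depth is unknown. The deposited per-site FDR values are adjusted p-values, listed up to 0.05. Footprints carry the deposited p-value or FDR limit 0.01. The shorter of the deposited peak lists was used (38674 and 47661 peaks, against 63793 and 79598 in the longer), and an overlap of at least 1 base made a peak shared. Reads of the CAST/EiJ genome were placed on a C57BL/6J reference.

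Start windows of 500 bases, promoters joined at gaps of 500 bases and flanks of 50 kb were applied with Python 3.11.15 and pysam 0.24.0. The first 20 bases of all 45 tropomyosin transcripts matched the genome. Scripts were tested on simulated data. The genes named from the partner lists are up to 2 per list with the highest percentile and all without a start peak in either library; nearest genes were chosen by Euclidean distance over 4 values scaled to an SD of 1. Genes and lists were chosen with earlier results of these data known. Libraries are the only replicates, and no tests were made. Alternatives changed the peak list, the stronger 50% of peaks, windows, overlap, gaps, transcripts, flanks, the ranking and each library in turn.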

Additional observations from a re-analysis of the deposited data

How the results depend on the processing

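The count of open tropomyosin promoters stayed between 5 and 7 in 11 alternatives, and the Tpm1 height ratio between 2.63 and 2.98 in 9. Leaving out 1 library moved the share of open promoters of protein-coding genes from 27.0% to between 28.2% and 29.2%. That share was 31.0% with the longer list, 21.9% with the stronger 50% of peaks, 25.5% and 29.7% with windows of 250 and 1000 bases, 26.3% with 50% of the peak required in the window, 29.7% with a promoter gap of 200 bases, 38.9% with protein_coding transcripts and 44.7% with basic transcripts. The median tropomyosin percentile of 70.8 became 76.9 with the longer list, 55.8 with the stronger 50% of peaks, 55.9 with a window of 250 bases and 84.1 ranked among all peaks. With protein_coding transcripts only, an alternative chosen after seeing the data, it was 57.1. Flanks of 10 kb left 10 of the 27 shared sites. The 39 pairs of a shared site and a motif became 25 with the stronger 50% of peaks, where fewer peaks were searched. Tpm3 had 2 open promoters without replicate 1, with the longer list and with a window of 1000 bases, and Tpm4 had 2 with a gap of 200 bases, which divides its promoter. Apart from where fewer peaks, bases or transcripts entered, the cause was not tested. No paired analysis was possible because there is a single group. The unknown depth gives no floor for promoters without a peak, so their accessibility was not detectable in these lists rather than absent.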
